A study of Mus musculus with 12 samples.

Results

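The protein partners of Eftud2 in the U5 particle and in the U4/U6.U5 tri-snRNP of the spliceosome were followed through mouse embryos in which Eftud2 itself was altered. Members were the rows of the count table with these gene symbols, chosen as known proteins of the particles: Prpf8, Snrnp200, Snrnp40, Prpf6 and Ddx23 of the U5 particle, Prpf3, Prpf4 and Prpf31 of the U4/U6 particle, and Sart1 and Usp39 of the joined tri-snRNP. All 10 were among the 24421 symbols of the count table, and all 10 were among the 14810 genes with enough counts to be tested. The embryos were C57Bl/6 mice, untreated, and carried a neural crest-specific change of Eftud2. Heterozygous embryos (Eftud2+/-) were the controls and homozygous embryos (Eftud2-/-) the mutants. Both were collected at embryonic day 9.0 (E9.0) and at embryonic day 9.5 (E9.5), with 3 libraries of total RNA in each of the 4 groups. The control groups therefore also carried 1 altered allele, and no wild-type group was analysed here. The labels name neither the driver of the neural crest restriction nor the number of embryos in a library, so p-values measure the spread between these libraries, which may be partly technical. The labels also differ on the tissue: neural crest cells, cranial nerve ganglia, and whole heads are each named.

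The U5 particle sits at the centre of the spliceosome, where it holds the exon ends together. It joins with the base-paired U4 and U6 RNAs and their proteins to form the tri-snRNP, which is the form in which U4, U5 and U6 enter a spliceosome. Eftud2 is the GTPase of the U5 particle and binds Prpf8, the large scaffold protein at the catalytic centre. These proteins are made in all dividing cells, and human conditions of the retina and face have been traced to several of their genes.

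Library totals ranged from 13914543 to 31172708 counts. At E9.0 they were 19810025 to 24302660 in heterozygous and 13914543 to 16590999 in homozygous libraries, without overlap. At E9.5 they were 24165537 to 31172708. The 45S ribosomal RNA precursor Rn45s made up 37.4% of heterozygous E9.0 replicate 1 and 6.05% to 16.2% of the other E9.0 libraries. In E9.5 libraries it was 4.40% to 5.90%. The Rn45s share thus went with stage, and depth at E9.0 with genotype, and the design cannot tell these apart. Levels are given as CPM, read counts relative to a library size scaled by TMM, a trimmed mean of ratios between libraries that a single large row hardly moves. Every member had at least 1025 counts in every library. The targeted gene, Eftud2, was at 302, 275 and 279 CPM in E9.0 controls. The homozygous E9.0 libraries had 236, 234 and 232 CPM, with no overlap. At E9.5 it was at 248, 255 and 264 against 226, 221 and 226 CPM, again with no overlap. Its log2 fold change, homozygous over heterozygous, was -0.29 ± 0.05 (SE, n = 3 libraries a group; adjusted p 0.0193 by edgeR) at E9.0. It was -0.19 ± 0.05 (adjusted p 0.0906 by edgeR) at E9.5, where 3 of 14 alternative analyses called it lower: DESeq2, GC and length correction, and that correction with the replicate block (adjusted p down to 0.0134). Scaled by total counts alone, the E9.0 value was -0.08 (edgeR adjusted p 0.751), while the median of all genes in that comparison moved to 0.19 and 75 of 78 calls were higher, against 64 of 87 with TMM. On the opposite strand a lincRNA gene, Gm26668, covers 26.9% of the exon bases of Eftud2, and the strand setting of the counting is not given in the sources used here, which bears on its level and on every ratio to it. At E9.0 Eftud2 also missed the threshold without heterozygous E9.0 replicate 1 (0.0645), homozygous replicate 1 (0.0601) or homozygous replicate 3 (0.0713).

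At E9.0, 3 of the 10 members rose in homozygous libraries: Prpf3, Snrnp200 and Sart1. None fell past the threshold of an adjusted p under 0.05. The background of this comparison was 0.587% of all tested genes called in either direction and 0.432% called higher. The 3 genes come from the 3 different particles, and the median log2 fold change of the 10 members was 0.19, with 9 of 10 above 0, beside -0.0043 over all genes tested. In unadjusted terms 6 of 10 members had p under 0.05, beside 13.3% of all genes. At E9.5 none of the 10 was called, and the median was 0.02 with 5 members above and 5 below 0. With 1 library left out, this E9.5 median ran from -0.020 to 0.043, with 5 or 6 members above 0.

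**Figure D1:**
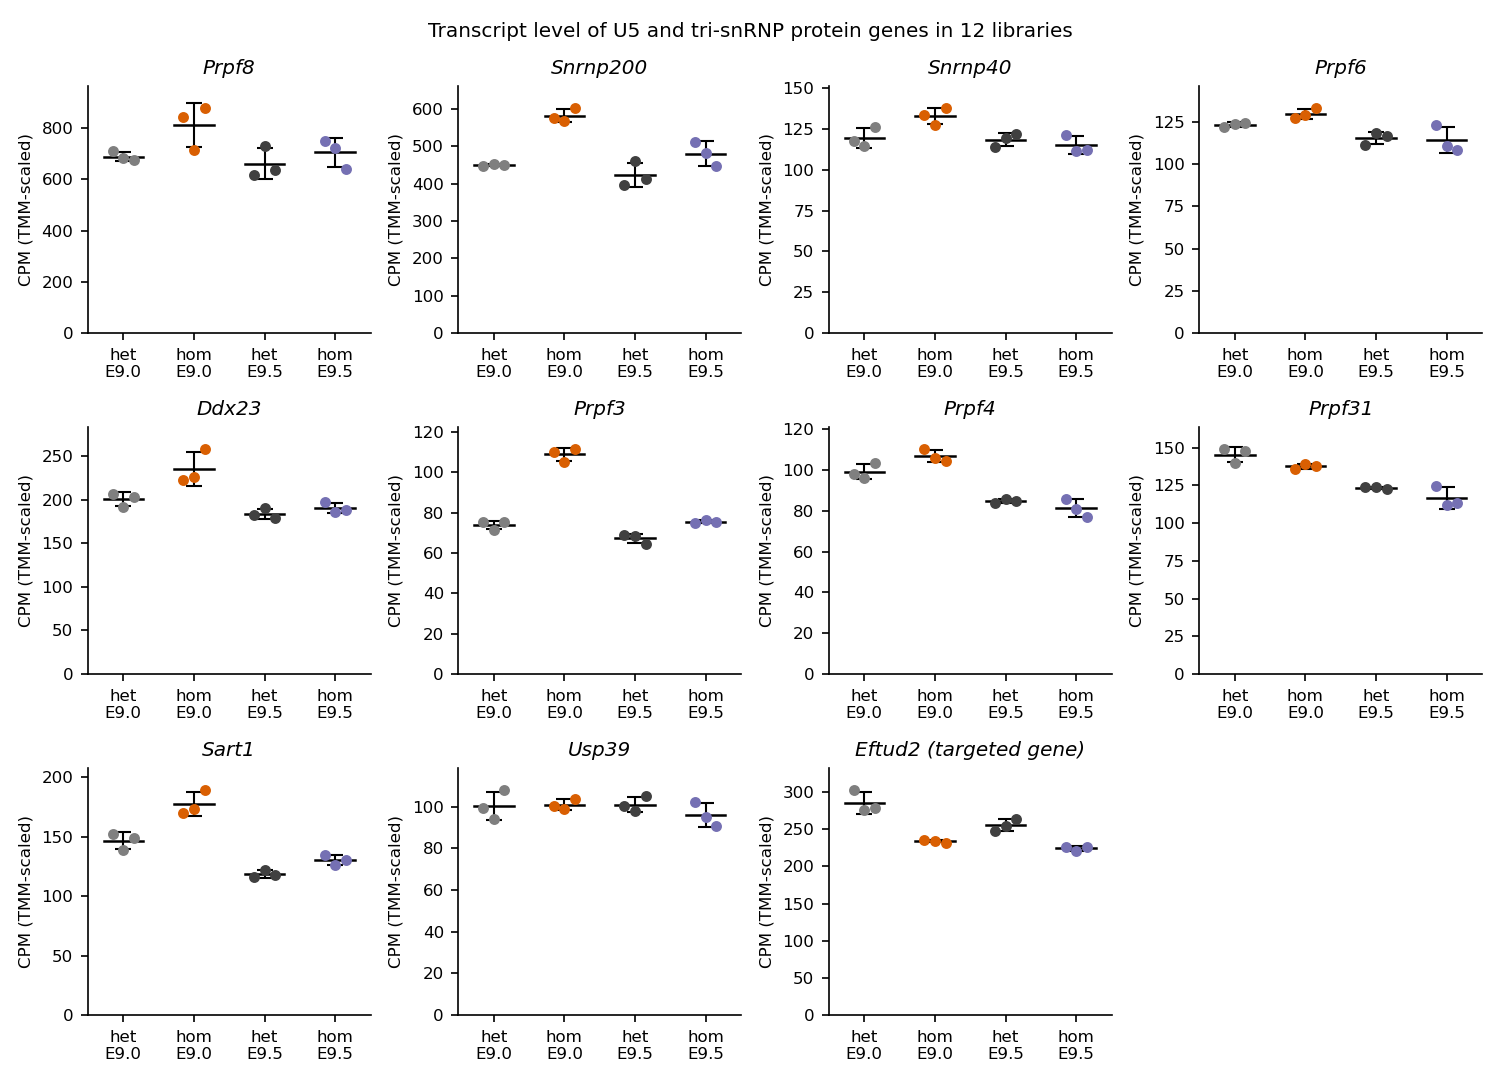
Level of each member and of Eftud2 in CPM on TMM-scaled library sizes, by group on the horizontal axis; points are the 3 libraries, the long bar the mean and the error bar the SD. For Prpf3, Snrnp200 and Sart1 every homozygous E9.0 library lies above all other libraries. The same holds for Ddx23, Snrnp40, Prpf6 and Prpf4, which were not called. In homozygous E9.0 libraries Prpf3 lies between 105 and 111 CPM against 71.6 to 75.2 CPM in heterozygous ones.

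Prpf3 is the U4/U6 protein that clamps the paired U4 and U6 RNAs. The gene lies on the minus strand at chr3:95830124-95855885 (GRCm38, GENCODE M21) with 16 merged exons. Heterozygous E9.0 libraries had 75.2, 71.6 and 75.2 CPM, and homozygous E9.0 libraries had 110, 105 and 111 CPM. Every homozygous library was thus above every heterozygous one by a gap several times wider than the range within either group. Mean levels of 74.0 ± 2.11 and 109 ± 3.16 CPM (SD over 3 libraries) gave a difference of 0.56 ± 0.05 (SE) on the log2 scale, or 1.47-fold (edgeR adjusted p 3.6e-05), the 5th smallest p of all genes tested. The call was made in 14 of 14 alternative analyses and in 6 of 6 fits with an E9.0 library left out. At E9.5 heterozygous libraries had 68.7, 68.5 and 64.4 CPM and homozygous ones 74.8, 76.4 and 75.3 CPM. The groups did not overlap, but the log2 fold change of 0.17 ± 0.05 (SE, n = 3) missed the threshold (edgeR adjusted p 0.127).

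Snrnp200 encodes the helicase of the U5 particle that unwinds U4 from U6. Its gene is on the plus strand at chr2:127208386-127240451 with 42 merged exons. It was at 447, 453 and 450 CPM in heterozygous and 577, 566 and 601 CPM in homozygous E9.0 libraries. The 3 heterozygous libraries were nearly equal, and the lowest homozygous library was far above them. Levels averaged 450 ± 3.05 and 581 ± 17.8 CPM (SD over 3 libraries), which is 0.37 ± 0.06 (SE) on the log2 scale or 1.29-fold (edgeR adjusted p 0.0111). At E9.5 it was at 396, 460 and 413 against 512, 481 and 447 CPM, and the groups overlapped (0.18 ± 0.06 on the log2 scale, edgeR adjusted p 0.199). The E9.0 call was lost without heterozygous E9.0 replicate 2 (edgeR adjusted p 0.0717) and without homozygous E9.0 replicate 3 (0.0616). It was also lost with total counts as the only scaling (0.0865), where its log2 fold change was 0.56.

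Sart1, a protein specific to the tri-snRNP that is needed for it to join the spliceosome, lies on the minus strand at chr19:5377523-5388703. It was at 152, 139 and 149 CPM in heterozygous and 170, 173 and 189 CPM in homozygous E9.0 libraries. The groups did not overlap. With averages of 147 ± 7.03 and 177 ± 10.2 CPM (SD over 3 libraries), its log2 difference was 0.28 ± 0.06 (SE) at an edgeR adjusted p of 0.0471, close to the threshold. Without any 1 of the 6 E9.0 libraries this p lay between 0.0577 and 0.254, and 7 of 14 alternative analyses kept the call. At E9.5 it was at 116, 122 and 118 against 135, 126 and 130 CPM, without overlap, and the log2 fold change was 0.14 ± 0.06 (edgeR adjusted p 0.320). On the opposite strand an antisense gene covers 6.24% of its exon bases.

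The other U5 proteins were not called at E9.0. Prpf8, the scaffold that Eftud2 binds, was at 710, 683 and 674 CPM in heterozygous and 842, 714 and 877 CPM in homozygous libraries. One homozygous library was barely above the controls, and the log2 fold change was 0.24 ± 0.08 (SE, n = 3; edgeR adjusted p 0.233). Ddx23, the helicase that frees the 5′ splice site from U1, was at 206, 191 and 203 against 222, 225 and 257 CPM (0.23 ± 0.06 on the log2 scale, edgeR adjusted p 0.126). DESeq2 and a correction for GC content and length did call Ddx23 (adjusted p 0.0411 and 0.0349). Snrnp40, a WD-repeat protein of the particle, was at 117, 114 and 126 against 134, 128 and 138 CPM (0.15 ± 0.06). Prpf6, which bridges U5 to U4/U6, was at 122, 124 and 125 against 127, 129 and 133 CPM (0.07 ± 0.06, 95% interval -0.05 to 0.19). In each of these 4 genes the lowest homozygous library was above the highest heterozygous one.

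The U4/U6 partners of Prpf3 did not rise with it past the threshold. Prpf4, which binds Prpf3 directly, was at 98.2, 96.3 and 103 CPM in heterozygous and 110, 106 and 104 CPM in homozygous E9.0 libraries (0.10 ± 0.06). Prpf31, which binds a kink in U4 RNA, was at 149, 139 and 147 against 136, 139 and 138 CPM. It was the single member with a negative value at E9.0, -0.08 ± 0.06 (95% interval -0.20 to 0.04), which became 0.12 with total counts as the only scaling. A processed transcript on the other strand covers 18.1% of its exon bases. Usp39, an inactive relative of the ubiquitin proteases that acts on the tri-snRNP, overlapped between groups at 99.3, 94.4 and 108 against 100, 98.8 and 104 CPM (0.01 ± 0.06, 95% interval -0.13 to 0.14). Library by library, 8 members at E9.0 had every homozygous library above every heterozygous one, beside 9.07% of all tested genes, and Prpf31 had the reverse, beside 8.2%, by a margin smaller than the rounding used here. At E9.5 the counts were 2 and 0, beside 11.4% and 9.47%. All of these rest on the same 12 libraries.

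**Figure D2:**
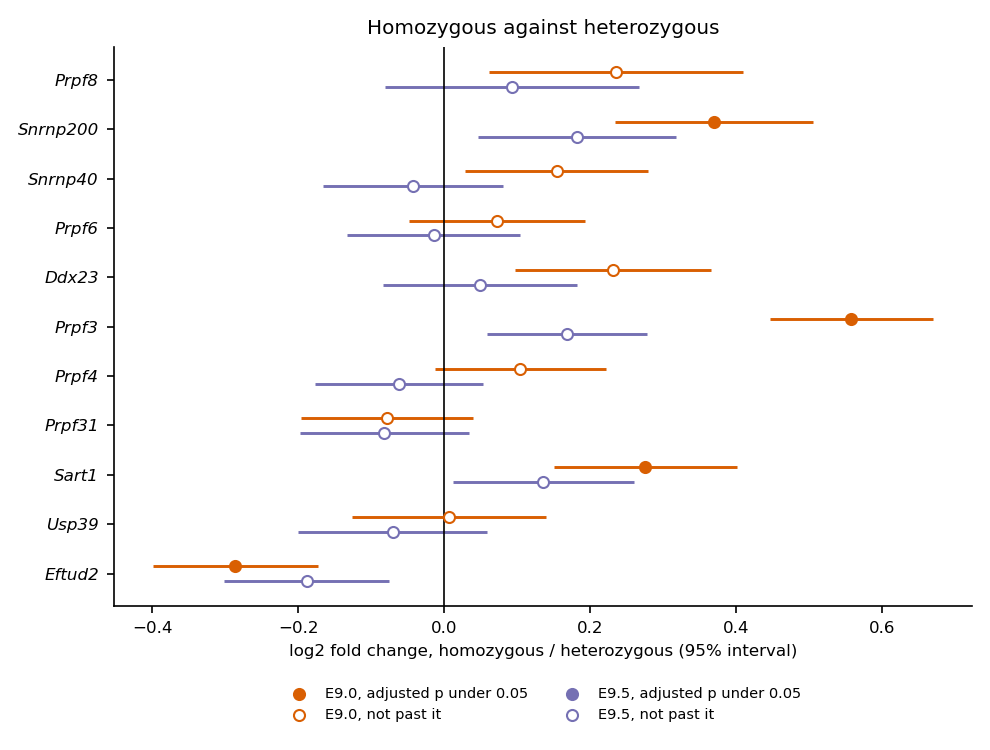
Log2 fold change, homozygous over heterozygous, of each member and of Eftud2 at both stages with 95% intervals; filled points passed an adjusted p under 0.05. At E9.0 Prpf3, Snrnp200 and Sart1 are filled above 0 and Eftud2 below it; at E9.5 every point is open.

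At E9.5 the remaining members lay close to 0: Prpf8 at 0.09, Ddx23 at 0.05, Prpf6 at -0.01, Snrnp40 at -0.04, Prpf4 at -0.06, Usp39 at -0.07 and Prpf31 at -0.08 on the log2 scale, each with an SE of 0.05 to 0.08. The background there was 1.89% of genes called. By edgeR 0 members were called and 3 of 10 had an unadjusted p under 0.05, beside 13.4% of all genes, and DESeq2 and limma-voom called 0. Averaged over both stages, Prpf3 (0.36 ± 0.04, edgeR adjusted p 3.8e-05), Snrnp200 (0.28 ± 0.05, 0.00289) and Sart1 (0.21 ± 0.04, 0.0122) were called, beside 2.96% of all genes called and 1.82% called higher. With total counts as the only scaling, Snrnp200 (edgeR adjusted p 0.0556) and Sart1 (0.117) lost this call and Prpf3 kept it (0.00799).

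Whether the genotype difference changed with stage was tested as an interaction, coded as the E9.5 difference minus the E9.0 difference. All 10 members were below 0, beside 47.9% of all genes, with a median of -0.15 beside 0.0094. With 1 library left out, 9 or 10 members were below 0. The members' median then ran from -0.19 to -0.10, the latter without homozygous E9.0 replicate 3. None passed the threshold, beside 0.0675% of all genes, and 3 of 10 had an unadjusted p under 0.05, beside 8.60%. The most negative was Prpf3 at -0.39 ± 0.07 (SE; edgeR adjusted p 0.0891), and it was called by DESeq2 (0.000772) and with GC and length correction (0.0254). For Snrnp200 the value was -0.19 ± 0.09 (edgeR adjusted p 0.589) and for Sart1 -0.14 ± 0.08 (0.677). A smaller difference at E9.5 than at E9.0 was thus not established for any member by the main test.

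Because the scaling of libraries moves all levels together, ratios of raw counts within each library were also taken, which need none. The pairs were chosen after the values had been seen. Prpf3 over Prpf31 was 0.506, 0.513 and 0.510 in heterozygous and 0.812, 0.759 and 0.807 in homozygous E9.0 libraries. At E9.5 it was 0.554, 0.554 and 0.526 against 0.600, 0.684 and 0.665. Prpf3 over Prpf4 was 0.766, 0.743 and 0.727 against 0.999, 0.994 and 1.07 at E9.0. At E9.5 it was 0.819, 0.796 and 0.759 against 0.871, 0.944 and 0.976. Both ratios were higher in every homozygous than in every heterozygous library of the same stage. Over all genes, the ratio to Prpf31 was so separated for 17.7% at E9.0 and 20.3% at E9.5, and the ratio to Prpf4 for 3.34% and 17%. Prpf4 over Prpf31, added later to complete these 3 pairs, was 0.660, 0.691 and 0.702 against 0.812, 0.764 and 0.755 at E9.0, without overlap, and overlapped at E9.5. Snrnp200 over Prpf8 was 0.630, 0.664 and 0.667 against 0.685, 0.793 and 0.685 at E9.0, and was separate at E9.5 too, beside 1.82% and 3.05% of all genes. Sart1 over Usp39 was separate at both stages, beside 7.29% and 17%. Prpf6 over Prpf8 and Ddx23 over Prpf8 overlapped at both stages. Over 68 such comparisons, 4 contrasts for each of 17 ratios, the smallest exact permutation p possible, 0.1, became 0.166 after Benjamini-Hochberg adjustment, so no ratio could pass.

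Relative to Eftud2, all 10 members had a higher ratio in every homozygous than in every heterozygous E9.0 library, and 7 of 10 did so at E9.5. This is to be read beside 51.2% and 48.9% of all genes, since Eftud2 itself was lower. The ratio of group means ran from 1.15 for Prpf31 to 1.79 for Prpf3 at E9.0, beside a median of 1.21 over all genes, and from 1.08 to 1.29 at E9.5, beside 1.14. For Prpf3 the ratio to Eftud2 was 0.249, 0.260 and 0.269 in heterozygous and 0.466, 0.449 and 0.479 in homozygous E9.0 libraries.

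**Figure D3:**
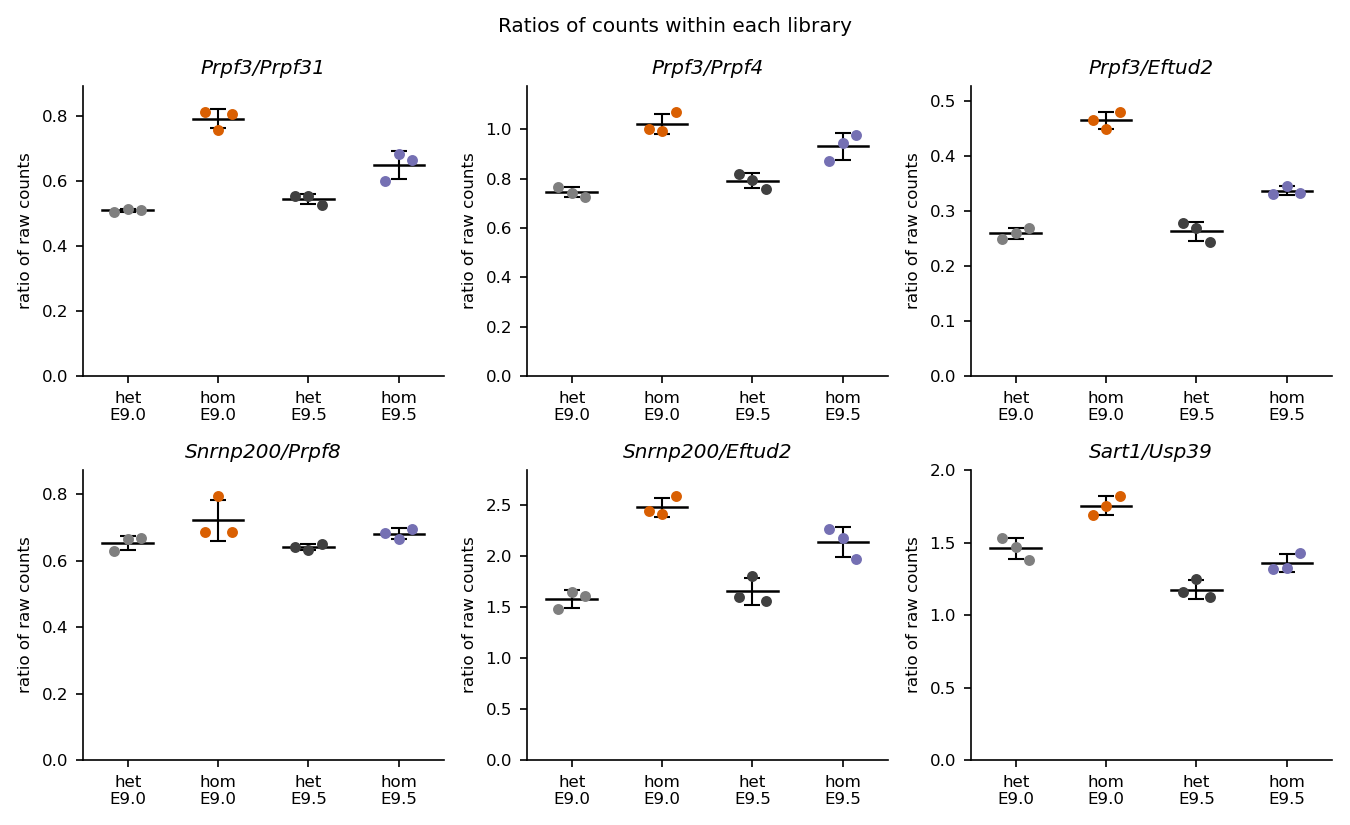
Ratio of raw counts of named gene pairs in each of the 12 libraries, by group; points are libraries, the long bar the mean and the error bar the SD. Prpf3 over Prpf31 lies at 0.506 to 0.513 in heterozygous and 0.759 to 0.812 in homozygous E9.0 libraries, and the panels show Prpf3 over Prpf31, Prpf4 and Eftud2, Snrnp200 over Prpf8 and Eftud2, and Sart1 over Usp39, all picked because their groups were separate; Prpf6 over Prpf8 and Ddx23 over Prpf8, which overlapped, are not plotted.

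Promoter stretches of the 3 genes that rose, and of Prpf31 as the member with a negative value, are shown so that they can be compared. They were read from RefSeq windows (GRCm38.p6) that reach 250 bases before an annotated start, found for 7 of 10 members, and cut to stretches outside annotated exons, 5′ to 3′ on the gene's strand. Capitals mark CCGGAA or its reverse complement, the core that ETS-family factors recognise.
Prpf3, chr3:95855886-95855985, minus strand: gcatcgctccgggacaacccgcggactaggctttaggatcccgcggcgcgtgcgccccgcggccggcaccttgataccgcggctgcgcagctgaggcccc
Snrnp200, chr2:127208286-127208385, plus strand: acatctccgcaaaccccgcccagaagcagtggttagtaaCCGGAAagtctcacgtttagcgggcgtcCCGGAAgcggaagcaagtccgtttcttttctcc
Sart1, chr19:5388704-5388803, minus strand: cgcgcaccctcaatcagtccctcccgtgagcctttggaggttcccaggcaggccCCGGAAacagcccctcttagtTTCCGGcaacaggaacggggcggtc
Prpf31, chr7:3629930-3629984, plus strand: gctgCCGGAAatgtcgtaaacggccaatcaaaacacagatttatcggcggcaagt

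On both strands, CCGGAA was found in a window of 6 of the 7 members with one, beside 13.6% of 27025 symbols with one. The search had first used the longer CCGGAAG, which was found in 2 of 7 members beside 7.83% of symbols, and it was shortened after the sequences had been seen, so the higher count follows from that choice. The shorter core lies within the longer one. Other motifs were CACGTG (1 of 7, beside 6.86%), CCAAT (2 of 7, 37.5%), GGGCGG (3 of 7, 35.4%), the NRF1 motif (0 of 7, 0.877%) and the p53 half-site (1 of 7, 8.20%). CCGGAA was found for Snrnp200, Sart1, Prpf3, Prpf31, Prpf4 and Prpf6, and not for Prpf8. Of these members, the longer CCGGAAG was found for Snrnp200 and Prpf3, the p53 half-site for Snrnp200 and CACGTG for Prpf3. The Prpf3 matches come from a second window that overlaps the printed stretch, and lie in its part next to the start, which is inside the annotated gene and is not printed. The single Prpf6 window also lies inside the annotated gene, downstream of the gene's first base, so its 3 matches of CCGGAA and 2 of GGGCGG are not from before the annotated gene. CCAAT was found for Prpf31 and Prpf8, and GGGCGG for Snrnp200, Sart1 and Prpf6. A match describes letters and not binding.

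Of 28 other proteins of these particles (the remaining U5 and tri-snRNP proteins, the Sm and LSm rings, assembly factors and B complex proteins), none was called in a genotype comparison. At E9.0, 24 of 28 were above 0 with a median log2 fold change of 0.11, including 7 of 7 Sm and 7 of 7 LSm genes. The highest was Lsm4 of the ring that binds U6 RNA, named after its value was seen, at 0.31 ± 0.07 (SE; edgeR adjusted p 0.0576). At E9.5, 15 were above and 13 below 0, with a median of 0.00094.

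**Figure D4:**
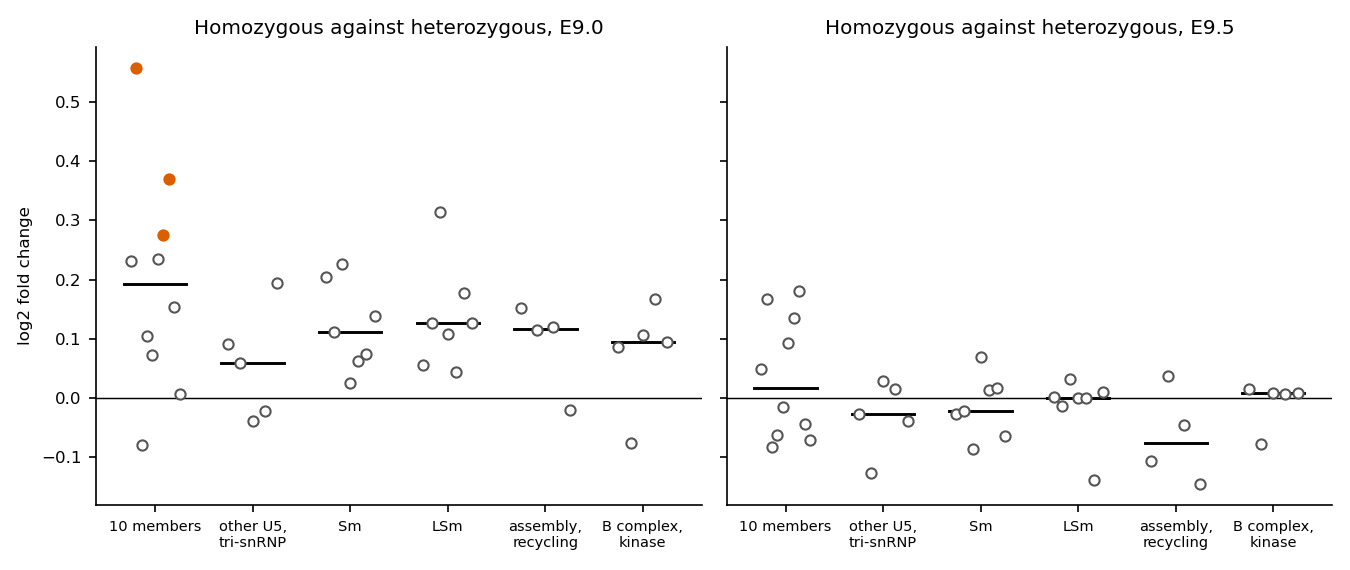
Log2 fold change, homozygous over heterozygous, of the 10 members and of the other proteins of the particles by class, at E9.0 and E9.5; each point is a gene, the bar is the class median and filled points passed an adjusted p under 0.05. The 3 filled points are Prpf3, Snrnp200 and Sart1 at E9.0, at 0.56, 0.37 and 0.28.

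Summed levels of markers of some cell types differed between genotypes without overlap. At E9.0 the 8 neural crest markers summed to 271 to 296 CPM in homozygous against 323 to 347 CPM in heterozygous libraries, with 1 of 8 called lower. Markers of the facial ectomesenchyme were at 169 to 179 against 195 to 206 CPM and endothelial markers at 307 to 315 against 259 to 277 CPM, with 0 of 8 called in each. At E9.5, where no member was called, 4 of 8 neural crest, 5 of 8 ectomesenchyme and 2 of 8 neuron and ganglion markers fell and 7 of 8 endothelial markers rose. Their sums there were 190 to 210 against 200 to 227 CPM for neural crest, which overlapped, 155 to 193 against 199 to 294 CPM for ectomesenchyme, 139 to 150 against 171 to 207 CPM for neurons and ganglia, and 303 to 334 against 168 to 236 CPM for endothelium. At E9.0 the neuron and ganglion sums overlapped, at 81.8 to 82.7 against 80.4 to 84.2 CPM, with 0 of 8 called. None of these lists had a marker at 0, and their part in the members' differences was not tested. In such bulk samples, fewer cells of a type and less RNA per cell cannot be told apart.

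Between the stages, most members were lower at E9.5 on the TMM scale. Every E9.0 library also had a higher share of Rn45s than every E9.5 library. In heterozygous libraries 9 of 10 members were below 0 and 3 fell: Sart1 (-0.31 ± 0.06, edgeR adjusted p 0.000806), Prpf31 (-0.23 ± 0.05, 0.00339) and Prpf4 (-0.23 ± 0.05, 0.00444). The background was 35.2% of genes called and 16% called lower. In homozygous libraries all 10 were below 0 and 8 fell, beside 35.4% called and 15.8% called lower. Prpf3 fell most, from 110, 105 and 111 to 74.8, 76.4 and 75.3 CPM (-0.53 ± 0.05 on the log2 scale, edgeR adjusted p 1.5e-06). Sart1 (-0.44), Prpf4 (-0.39), Ddx23 (-0.31), Snrnp200 (-0.28), Prpf31 (-0.24), Snrnp40 (-0.21) and Prpf6 (-0.18) fell too, while Prpf8 was at -0.20 (edgeR adjusted p 0.0675) and Usp39 at -0.07. The Prpf6 call was lost without homozygous E9.0 replicate 3 and without homozygous E9.5 replicate 2 or 3 (edgeR adjusted p up to 0.0987). That of Snrnp40 was lost without homozygous E9.5 replicate 2 or 3 (edgeR adjusted p up to 0.0561). Scaling by total counts alone moved the median of all genes to 0.38 in heterozygous and 0.18 in homozygous libraries. Then all 10 were above 0 in heterozygous libraries. With total counts alone Sart1, Prpf31 and Prpf4 lost their lower calls there (edgeR adjusted p 0.674, 0.407 and 0.399), and Usp39 (0.38, adjusted p 0.0339) and Snrnp40 (0.36, 0.0440) were called higher instead. In homozygous libraries, also with total counts alone, 9 were below 0 with 0 of 10 called. Of the other scalings tried, RLE factors left 10 members below 0 in heterozygous libraries and upper-quartile factors 8. Over all genes, scaling by total counts alone took the higher share of calls from 2840 of 5216 to 6725 of 6979 in heterozygous libraries. In homozygous libraries the same scaling took it from 2896 of 5238 to 2897 of 3325. The homozygous E9.0 libraries enter both this comparison and the genotype comparison at E9.0, so the values are not independent.

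**Figure D5:**
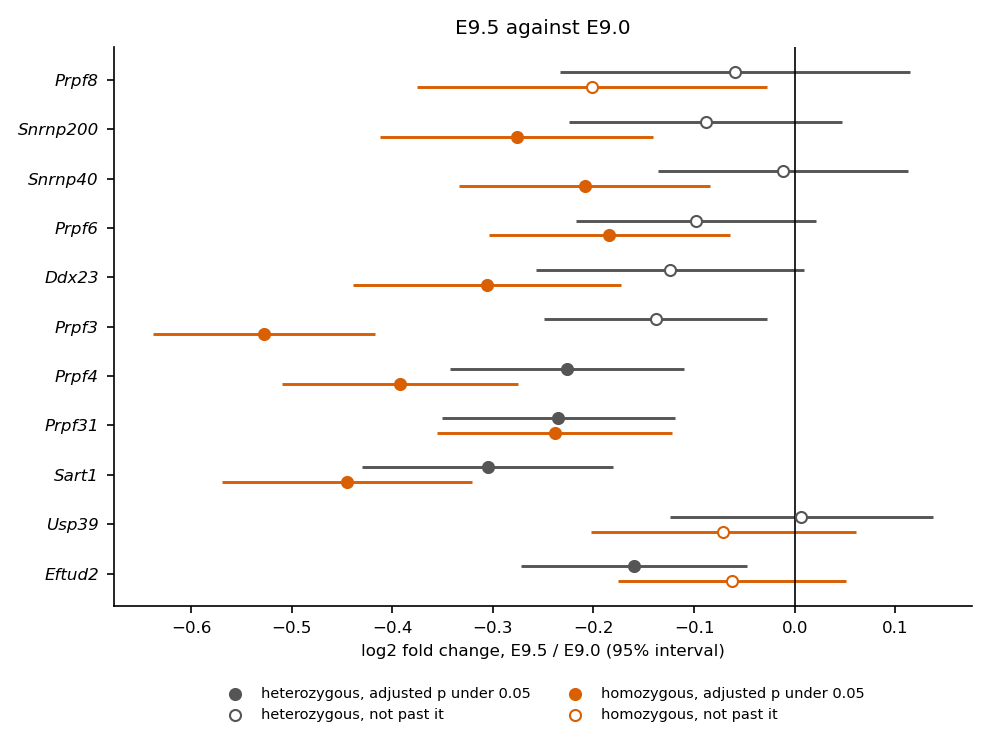
Log2 fold change, E9.5 over E9.0, of each member and of Eftud2 within heterozygous and within homozygous libraries, with 95% intervals; filled points passed an adjusted p under 0.05. On the TMM scale Prpf3 lies at -0.53 in homozygous and -0.14 in heterozygous libraries; with total counts only, the heterozygous values are above 0.

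Marker levels of some cell types also differed between stages. Heart muscle markers summed to 64.3 to 329 CPM at E9.0 and 1822 to 2932 CPM at E9.5, and erythroid markers to 552 to 1215 and 2835 to 5294 CPM. Over all genes, 35.2% were called between stages in heterozygous and 35.4% in homozygous libraries, and 16% and 15.8% were called lower. Beside this, 5 of 8 neural crest markers were called lower in each genotype. Neuron and ganglion markers were called higher for 8 of 8 in heterozygous and 6 of 8 in homozygous libraries. Endothelial markers were called lower for 5 of 8 in heterozygous libraries, and in homozygous ones 1 was lower and 2 higher. Ectomesenchyme markers had 3 of 8 called higher in heterozygous and 3 of 8 lower in homozygous libraries. Here, too, the number of cells of a type and the RNA per cell cannot be told apart. The part of these markers in the fall of the members was not tested. As a share of all counts other than Rn45s, the 10 members together took 0.231% to 0.236% in heterozygous and 0.267% to 0.292% in homozygous E9.0 libraries, and 0.223% to 0.246% and 0.233% to 0.255% at E9.5. On this scale, too, the homozygous E9.0 libraries were the highest 3 of the 12. As a share of all counts with Rn45s included they were not, since homozygous E9.5 replicate 1 (0.2422%) was just above homozygous E9.0 replicate 1 (0.2418%). Prpf8 and Snrnp200 weigh most in these shares. In heterozygous E9.0 libraries they averaged 689 and 450 CPM, where the 10 members summed to 2106 to 2176 CPM. The shares therefore do not describe each member.

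Levels can be set side by side between genes only per length, here CPM per kb of merged exons. Prpf8 was the highest in all 4 groups, at 92.3 ± 2.47 CPM per kb (SD, n = 3) in heterozygous E9.0 libraries, followed by Snrnp200 at 57.5 ± 0.390 and Usp39 at 41.1 ± 2.79. Eftud2 (32.8 to 36.0 over the 3 libraries), Ddx23 (30.7 to 33.1), Prpf6 (31.7 to 32.3) and Snrnp40 (28.7 to 31.7) came next, and each overlapped its neighbour in this order. Prpf31 (26.7 ± 0.927) and Sart1 (24.8 ± 1.19) overlapped as well. Prpf4 (17.5 ± 0.660) and Prpf3 (13.1 ± 0.372) were lowest and separate. In homozygous E9.0 libraries Prpf3, at 19.2 ± 0.558, was above Prpf4, at 18.8 ± 0.534, but these overlapped. The order depends on the length used: with the longest transcript in place of merged exons, 34 of 44 ranks moved, though Prpf8 remained the highest in all 4 groups. In heterozygous E9.0 libraries Prpf8 was then at 92.6 ± 2.48 CPM per kb, and Eftud2 came second at 85.5 ± 4.37. Snrnp40 (65.4 to 72.2 over the 3 libraries) and Snrnp200 (66.3 to 67.2) followed and overlapped, and Ddx23 was next at 58.7 ± 2.30. Prpf3, at 25.2 ± 0.718, was then above Prpf4, at 19.0 ± 0.717, without overlap.

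Across the 12 libraries the 45 pairs of members had a median Pearson r of 0.74, from 0.11 for Snrnp200 with Usp39 to 0.96 for Ddx23 with Sart1. Once each group's mean had been taken out the median was 0.52, from -0.14 for Prpf6 with Prpf3, the 1 negative pair, to 0.95 for Ddx23 with Sart1. Over all pairs of tested genes the medians were 0.00031 and -0.0011. These points share libraries and their scaling, so they are a description. The genes whose log2 CPM was most like the members' mean over the 12 libraries were Aen (r 0.98), Ddx24 (0.96), Grwd1 (0.96), Pwp2 (0.96) and Eif4a3 (0.96). With group means out they included Rcc1 (0.95), Ebna1bp2 (0.93), Gemin5 (0.93) and Tnxb (0.92), the last at only 0.342 CPM.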

How the data were processed

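The authors deposited 1 table of raw counts per gene symbol for 12 libraries, whole numbers with no normalization. The submitters' processing notes name cutadapt, MultiQC, STAR, featureCounts and the mm10 build; which annotation and strand setting were used is not given in the sources used here. Positions, lengths and overlaps come from GENCODE M21 (GRCm38), where 23376 symbols matched directly, 656 by a synonym and 389 not at all.

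Tests used edgeR 4.0.16 in R 4.3.3: filterByExpr by group kept 14810 genes, libraries were scaled by TMM, and the quasi-likelihood F test with robust dispersions was run on 4 group means over all 12 libraries, with Benjamini-Hochberg adjustment over all tested genes, two-sided. The SE is the fold change over the square root of F. DESeq2 1.42.0, limma 3.58.1 (voom), other scalings, filters and fits, and each library left out in turn were alternatives. The test was also run on simulated counts with known changes. These were drawn without a stage effect or a difference in Rn45s share, and no result here rests on them. Single values were compared by exact permutation tests, which with 3 against 3 libraries cannot go below 0.1.

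Genes named are Eftud2, the 10 members, other particle proteins past the threshold in a genotype comparison, and the 5 genes most like the members by each of 2 measures. Lsm4 falls outside this rule and was named after its value was seen. A gene that this rule selects is not reported here. The members, lists and tests were chosen with earlier results of these data known.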

Additional observations from a re-analysis of the deposited data

How the results depend on the processing

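The number of members called at E9.0 (3) reached 4 with DESeq2, where 216 of all genes were called. It was 1 with total counts only and at an adjusted p under 0.01, and 1 to 3 with 1 library left out. The value 1 came without replicate 2 of the heterozygous or replicate 3 of the homozygous E9.0 libraries. For the averaged genotype effect it was 1 with total counts only and reached 4 with GC and length correction, where 696 of all genes were called. For the interaction it was 1 with DESeq2, where 76 of all genes were called. It was also 1 with GC and length correction, and with that correction and the replicate block. For stage in homozygous libraries it was 0 with total counts only and reached 9 with DESeq2. For stage in heterozygous libraries 2 were called with total counts only, both higher, in place of 3 lower. The cause was not tested.

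Values of single genes that changed sign follow. With total counts only, the heterozygous stage values were 0.32 (Prpf8), 0.28 (Snrnp200), 0.36 (Snrnp40), 0.27 (Prpf6), 0.25 (Ddx23), 0.23 (Prpf3), 0.14 (Prpf4), 0.14 (Prpf31), 0.071 (Sart1) and 0.22 (Eftud2). In homozygous libraries they were 0.10 (Usp39) and 0.11 (Eftud2). Also with total counts only, Prpf31 was 0.12 at E9.0 and 0.015 averaged, Usp39 was 0.059 averaged, and the Eftud2 interaction was -0.11. At E9.0 Usp39 was -0.024 with GC and length correction, -0.022 with the replicate block added and -0.013 with no filter. The Prpf31 interaction was 0.015 with no filter. For stage in heterozygous libraries Snrnp40 was 0.0085 with no filter, 0.00092 with the replicate block with GC and length correction and 0.00084 with upper-quartile factors. Usp39 there was -0.0052 with DESeq2, -0.030 with GC and length correction, -0.0046 with RLE factors and -0.029 with that correction and the block. With 1 library left out, values crossing 0 ran from -0.039 to 0.060 (Usp39, E9.0), -0.067 to 0.022 (Prpf6, E9.5), -0.050 to 0.029 (Prpf31, interaction), -0.042 to 0.032 (Snrnp40, stage in heterozygous) and -0.037 to 0.062 (Usp39, the same).

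Calls over all genes ranged more widely: 34 to 216 at E9.0 (87 in the main test), 81 to 448 at E9.5 (280), 159 to 696 averaged (439) and 1 to 76 for the interaction (10). The higher share of these calls moved with total counts only to 58 of 123 at E9.5 (176 of 280) and 300 of 354 averaged (270 of 439). Of 18 correlations of same-numbered deviations, from -0.17 to 0.11, 1 was over 0.1, that of heterozygous with homozygous E9.0 replicate 1. Such values cannot settle whether replicate numbers pair the libraries. With the replicate block the members called at E9.0 were Prpf3 and Snrnp200, and Sart1 was at an edgeR adjusted p of 0.0796. GC and length were known for 99.3% of tested genes.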
